A study of Mus musculus with 6 samples.

Results

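The immediate early transcription factors were read as 10 genes of 15861 in a table of RNA-seq counts from sorted mouse germinal centre B cells. They were chosen by symbol alone, as the AP-1 genes Fos, Fosb, Jun, Junb and Jund, the zinc finger genes Egr1, Egr2 and Egr3, the orphan nuclear receptor gene Nr4a1 and the gene Ier2. All 10 had a row, and 9 of them passed the filter on low counts that left 10926 genes for the test. The KO group held 3 libraries from C57BL/6 mice of genotype Cgamma-cre+/- Lsd1 f/f, and the WT group held 3 from C57BL/6 mice that were Lsd1 f/f without the Cre. Both groups therefore carried floxed Lsd1, the older name of the histone demethylase gene Kdm1a, and no mouse with the Cre and an unfloxed Lsd1 was analysed here. The series design gives the mice as littermates, with polyadenylated RNA of 1 mouse per library and cells sorted as B220+ GL7+ FAS+. Neither the age of the mice nor their immunisation is given in the sources used here.

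Immediate early genes are switched on within minutes of a signal from preformed factors, without new protein synthesis. In B cells, antigen receptor and CD40 signals reach them through MAP kinases, serum response factor with its partners, and CREB. FOS proteins pair with JUN proteins to form AP-1, while JUN proteins can also pair among themselves. EGR proteins bind GC-rich sites and are held back by NAB corepressors. Nr4a1, also called Nur77, is widely used as a reporter of antigen receptor signalling. The same genes also respond to handling stress when tissue is dissociated and cells are sorted.

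Libraries held 12.3 to 14.3 M counts in KO and 3.39 to 5.52 M counts in WT, so every KO library was deeper and genotype and depth cannot be told apart. Kdm1a, the targeted gene, stood at 81.9, 33.0 and 21.8 CPM (read counts per M of the TMM-scaled library size) in KO 1, KO 2 and KO 3, against 134, 85.2 and 92.6 in WT 1, WT 2 and WT 3. Its log2 fold change of -1.19 (SE 0.50) did not pass (adjusted p = 0.393, edgeR quasi-likelihood test). By its Kdm1a level, the library labelled KO 1 lay close to the lowest WT library, and without it the log2 fold change of Kdm1a was -1.93 and passed (edgeR adjusted p = 0.0169). Each value of the KO group below includes that library. Without it 0 of the 9 tested members passed, and their median log2 fold change was 0.22. The germinal centre marker Bcl6 ranged over 207 to 274 CPM in KO, against 213 to 320 CPM in WT, whereas Mef2b had at most 6 counts in any library. Of the 11 germinal centre markers tested, 1 had a log2 fold change above 0, and their median was -0.25.

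No member differed between the genotypes past the threshold. Of the 9 tested, 0 had an adjusted p under 0.05 (edgeR), where 9 of all 10926 genes, or 0.0824%, did. At an unadjusted p under 0.05 there were 2 members, Egr2 and Egr3, both higher in KO, beside 7.10% of all genes higher and 5.50% lower. DESeq2 and limma-voom called 0 members as well. The median log2 fold change of the 9 members was 0.28, against 0.01 over all tested genes, with 7 of the 9 above 0. In bulk RNA, fewer cells with a transcript and less of it per cell cannot be told apart.

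**Figure D1:**
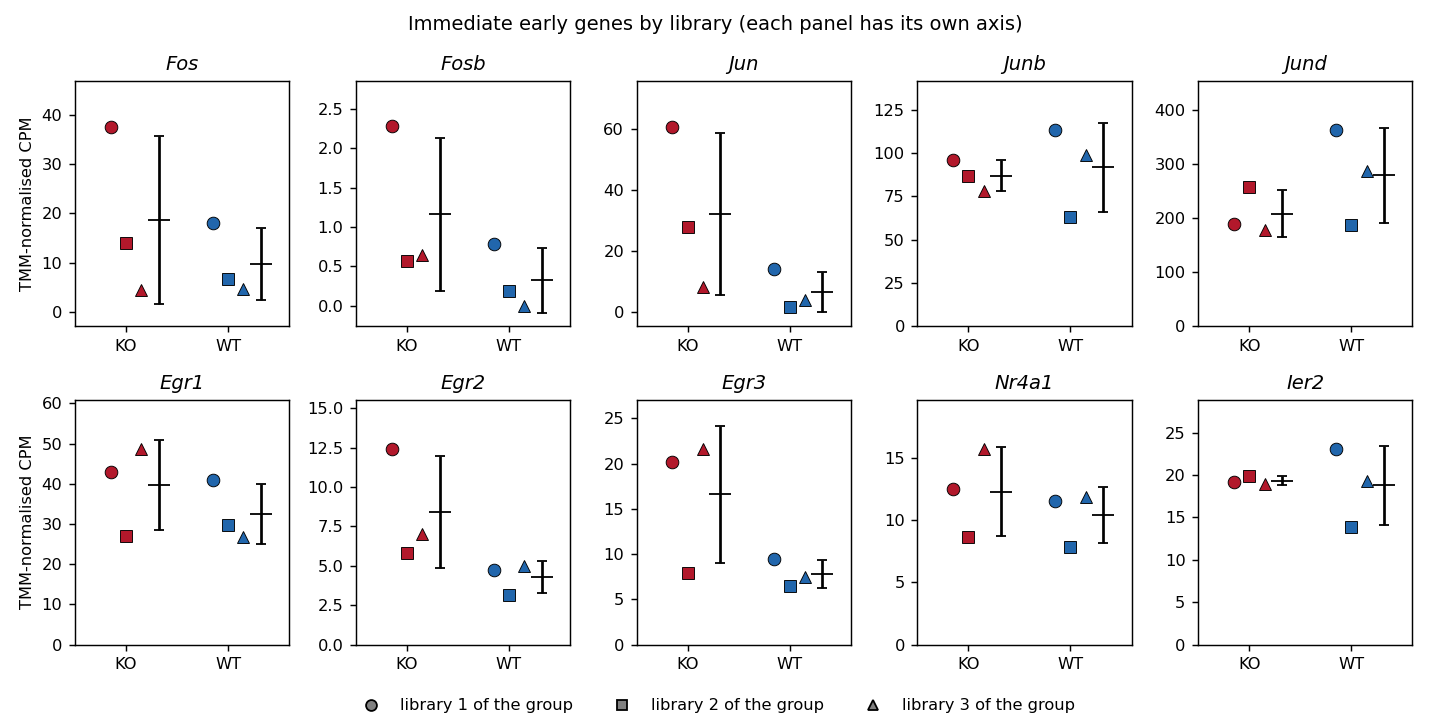
TMM-normalised CPM of each immediate early gene in the 3 KO libraries and the 3 WT libraries. Symbols give the library number within its group, and the bar beside them the mean with its SD (n = 3). Fos and Jun span a wide range within both genotypes, and the KO and WT points of Egr2 do not overlap.

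Among the FOS genes, Fos encodes the partner that gives AP-1 its strongest DNA binding with JUN. Its level was 37.4, 14.0 and 4.50 CPM in KO 1, KO 2 and KO 3, against 18.1, 6.65 and 4.68 CPM in WT 1, WT 2 and WT 3. The groups overlapped fully at the low end, since KO 3 had the lowest value of all libraries. The log2 fold change was 0.92 (SE 0.89, 95% interval -1.29 to 3.14), at an adjusted p of 0.73 (edgeR). Its sign rested on the library labelled KO 1, without which it was -0.08. Fosb, a close relative with its own splice forms, had 30, 8 and 9 counts in KO and 3, 1 and 0 counts in WT and did not pass the filter. A count of 0 in WT 3 allows up to 3 counts, or 0.935 CPM. From 47 summed counts in KO and 4 in WT, the ratio of pooled CPM was 3.45, whose exact 95% interval, for counting error alone, was 1.26 to 13.2. Fitted with no filter, Fosb differed by 1.76 log2 units (SE 1.07) at an adjusted p of 0.596 (edgeR).

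Of the JUN genes, Jun encodes the strongest transactivator of the family. Its level was 60.4, 27.7 and 8.15 CPM in KO 1, KO 2 and KO 3, against 14.2, 1.76 and 4.05 CPM in WT 1, WT 2 and WT 3. KO 1 and KO 2 lay above every WT library, and KO 3 lay between WT 3 and WT 1. Jun had the largest log2 fold change of the 9 members, 2.28 (SE 1.08, 95% interval -0.52 to 5.08), and it did not pass (edgeR adjusted p = 0.466). It was 1.43 without KO 1 and 3.50 without WT 1. An antisense gene, Junos, overlaps Jun on chromosome 4 (95049034 to 95052222, minus strand, mm10), and the strand setting of the counts is not given in the sources used here, so reads of Jun and Junos cannot be told apart.

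Junb and Jund encode JUN proteins that activate more weakly and in many settings restrain growth. Junb had 96.1, 86.7 and 78.2 CPM in KO, against 113, 63.1 and 98.8 CPM in WT. All 3 KO libraries fell inside the range of the WT libraries. The log2 fold change was -0.08 (SE 0.24, 95% interval -0.60 to 0.45), and its sign turned to 0.03 with library size alone as the scaling and to 0.08 without WT 1. Jund had 189, 257 and 177 CPM in KO, against 363, 188 and 288 CPM in WT. KO 1 and KO 2 lay inside the WT range and KO 3 just under it. Jund had the lowest log2 fold change of the members, -0.43 (SE 0.26, 95% interval -0.996 to 0.15, edgeR adjusted p = 0.52), and ran from -0.65 without WT 2 to -0.22 without WT 1. The annotation places the antisense gene Gm11175 across Jund and the gene Prdx2 across part of Junb, both on chromosome 8, so their counts are less certain too.

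Among the EGR genes, Egr2 and Egr3 were the members with an unadjusted p under 0.05. Egr2, which in lymphocytes restrains activation together with Egr3, had 12.5, 5.79 and 7.01 CPM in KO, against 4.73, 3.13 and 4.99 CPM in WT. It was the 1 tested member whose groups did not overlap, all KO libraries being above all WT libraries, where 18.0% of all tested genes did not overlap in one direction or the other. The WT values of Egr2 rest on 18, 16 and 16 counts, and KO 2 lay only just above WT 3. Its log2 fold change was 0.98 (SE 0.42, 95% interval 0.06 to 1.90, edgeR adjusted p = 0.365), and 0.58 without KO 1. Egr3 had 20.2, 7.90 and 21.7 CPM in KO, against 9.45, 6.45 and 7.48 CPM in WT. KO 1 and KO 3 lay well above the WT libraries, and KO 2 lay below WT 1. Its log2 fold change of 1.09 (SE 0.40, 95% interval 0.23 to 1.96) did not pass (edgeR adjusted p = 0.305).

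Egr1, the EGR gene with the highest level, had 42.9, 27.1 and 48.8 CPM in KO, against 41.0, 29.7 and 26.8 CPM in WT. The groups overlapped, with KO 2 near the lower end of WT. The log2 fold change was 0.28 (SE 0.27, 95% interval -0.31 to 0.87), and ran from 0.09 without KO 3 to 0.50 without KO 2. Nr4a1 had 12.5, 8.61 and 15.7 CPM in KO, against 11.6, 7.82 and 11.8 CPM in WT, which overlapped as well. Its log2 fold change was 0.24 (SE 0.33, 95% interval -0.49 to 0.97), and it lay at 0.00 without KO 3. Ier2, a small nuclear regulator, had 19.1, 19.9 and 18.9 CPM in KO, against 23.1, 13.9 and 19.3 CPM in WT. It was the steadiest member in KO, where its highest library was 1.05 times its lowest. Its log2 fold change was 0.05 (SE 0.26, 95% interval -0.53 to 0.62), and -0.14 without WT 2.

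**Figure D2:**
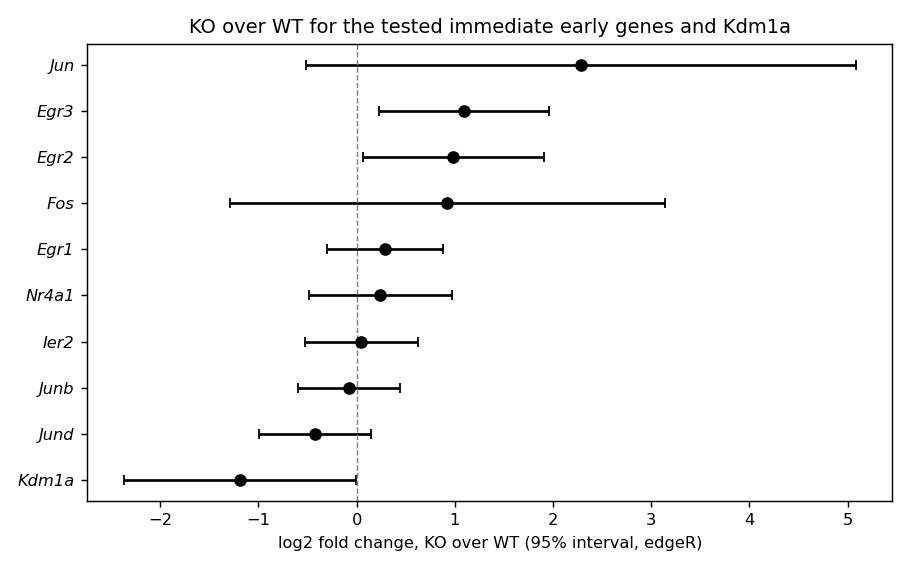
Log2 fold change of KO over WT with its 95% interval for the 9 tested immediate early genes and, in the bottom row, the targeted gene Kdm1a (edgeR, n = 3 each). The interval of Jun runs from -0.52 to 5.08, and the intervals of Egr2 and Egr3 lie above 0 before adjustment over all genes.

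The intervals set what these libraries can show. For Junb and Ier2 the whole 95% interval lay between -0.60 and 0.62, and for Egr1 and Nr4a1 between -0.49 and 0.97, so a difference of 2-fold or more lies outside each of them in this fit. The interval of Jund stopped just short of 2-fold and passed it with other settings, reaching -1.24 without KO 2. Those of Egr1 and Nr4a1 did so too, reaching 1.09 and 1.23 without KO 2. For Fos and Jun the intervals spanned over 4 log2 units in this fit. They lay above 0 with the replicate number as a block, at 0.02 to 1.49 for Fos and 1.19 to 3.47 for Jun. Without KO 3 they did too, at 0.02 to 2.72 and 0.63 to 4.81. In the other settings with an interval they reached below 0, and neither gene passed in any setting. From the main fit neither a large difference nor none can be read for Fos and Jun.

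Spread between mice of a genotype differed widely among the members. The pooled within-group SD of log2 CPM was 1.44 for Jun and 1.27 for Fos, the 97.4th and 96.6th percentile of all tested genes. Within KO, Fos differed 8.31-fold and Jun 7.42-fold between the highest and the lowest library, and within WT they differed 3.88-fold and 8.06-fold. Egr3 and Egr2 followed with SDs of 0.60 and 0.47. Jund, Egr1, Nr4a1 and Junb lay between 0.33 and 0.40, near the median of 0.32 over all tested genes, and Ier2 at 0.26 lay below it. Of the 9 members, 8 had an SD above that median.

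**Figure D3:**
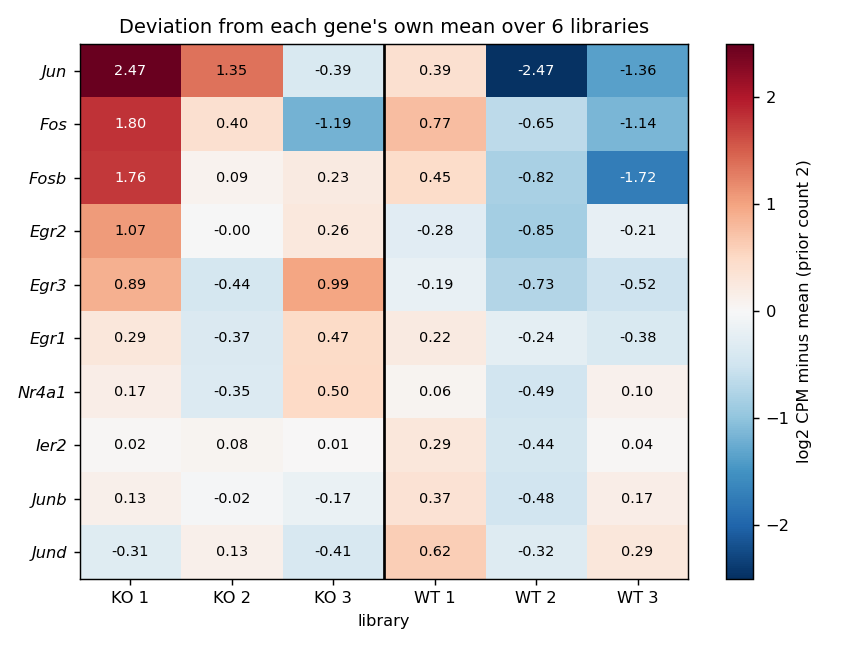
Deviation of each immediate early gene in each library from its own mean over the 6 libraries, on the log2 CPM scale with a prior count of 2. Jun runs from 2.47 in KO 1 to -2.47 in WT 2, whereas Ier2, Junb and Jund reach no further than 0.62 from their means.

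Members fell into alike pairs across the 6 libraries, taken by the root mean square difference of their centred log2 CPM profiles. The closest pair was Junb and Ier2 (0.11), which lie 311.6 kb apart on chromosome 8, then Egr1 and Nr4a1 (0.24) and Junb and Jund (0.25). Egr2 and Egr3 differed by 0.38. Jun and Fos were the least like the rest, at 1.37 and 0.87 from the mean profile of the other members. The mean profile of the 9 members, which Jun and Fos dominate by their range, stood at 0.73, 0.09 and 0.01 in KO 1, KO 2 and KO 3 and at 0.25, -0.74 and -0.33 in WT 1, WT 2 and WT 3. Of 5673 other genes with a mean log2 CPM of at least 5, the 5 nearest to it were Nfkbia (0.13), Golga2 (0.15), 4930427A07Rik (0.16), Ier5 (0.16) and Gsg2 (0.17), where the median gene lay at 0.54. Nfkbia had 126, 73.3 and 70.1 CPM in KO, against 84.8, 52.0 and 66.1 CPM in WT.

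Levels between genes were compared as CPM per kb of exon, since transcript lengths differ. Jund led with 125 ± 26.0 in KO and 167 ± 52.6 in WT (SD, n = 3 each). Junb came second with 37.8 ± 3.88 in KO and 39.9 ± 11.2 in WT, followed by Ier2 with 12.7 ± 0.333 in KO and 12.3 ± 3.05 in WT. The 6 libraries of these neighbours did not overlap between Jund and Junb, nor between Junb and Ier2. From Ier2 downward the order by median was Egr1, Fos, Jun, Nr4a1, Egr3 and Egr2, and each neighbouring pair overlapped, although Egr3 exceeded Egr2 in 6 of 6 libraries. Fosb was lowest, at no more than 0.365 CPM per kb, below every library of Egr2. Batf, an AP-1 partner of JUN proteins and IRF4 in B cells, had 20.0 ± 2.97 CPM per kb in KO and 22.4 ± 3.72 in WT, above every library of Fos.

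Within each family, shares of the summed CPM per kb remove differences in library scaling. Jun made up 10.9%, 4.33% and 1.79% of the JUN transcripts in KO 1, KO 2 and KO 3, and 1.64%, 0.393% and 0.586% in WT 1, WT 2 and WT 3. All KO shares of Jun lay above the WT shares, the closest being KO 3 and WT 1. Jund made up 65.2%, 76.9% and 74.4% in KO and 80.2%, 80.1% and 79.6% in WT, which again did not overlap. Among the EGR transcripts Egr1 held 53.7%, 63.3% and 60.9% in KO and 72.1%, 73.5% and 65.4% in WT. The share of Egr3 was 25.7%, 18.8% and 27.5% in KO and 16.9%, 16.2% and 18.6% in WT, with KO 2 only just above WT 3. Of the 6 JUN and EGR shares compared, these 4 did not overlap between the genotypes. By CPM, Jun, Jund, Egr1 and Egr3 each overlapped. The CPM of 18.0% of all tested genes did not overlap, but that figure is for single genes. None was computed for shares, so the 4 of 6 has no figure over all genes to be read against. Each of the 4 shares gave p = 0.1 in an exact two-sided permutation test (0.15 after Benjamini-Hochberg adjustment over the 6 shares). With 3 against 3 libraries 0.1 is the smallest p this test can give, so no share could pass. Shares of a family are tied to each other, and the antisense overlap at Jun and Jund bears on the JUN shares. FOS shares were not tested. Fos held 89.3% to 97.9% of the FOS transcripts in KO and 92.8% to 97.7% in WT, which overlapped, as did the shares of Fosb, Fosl1 and Fosl2.

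**Figure D4:**
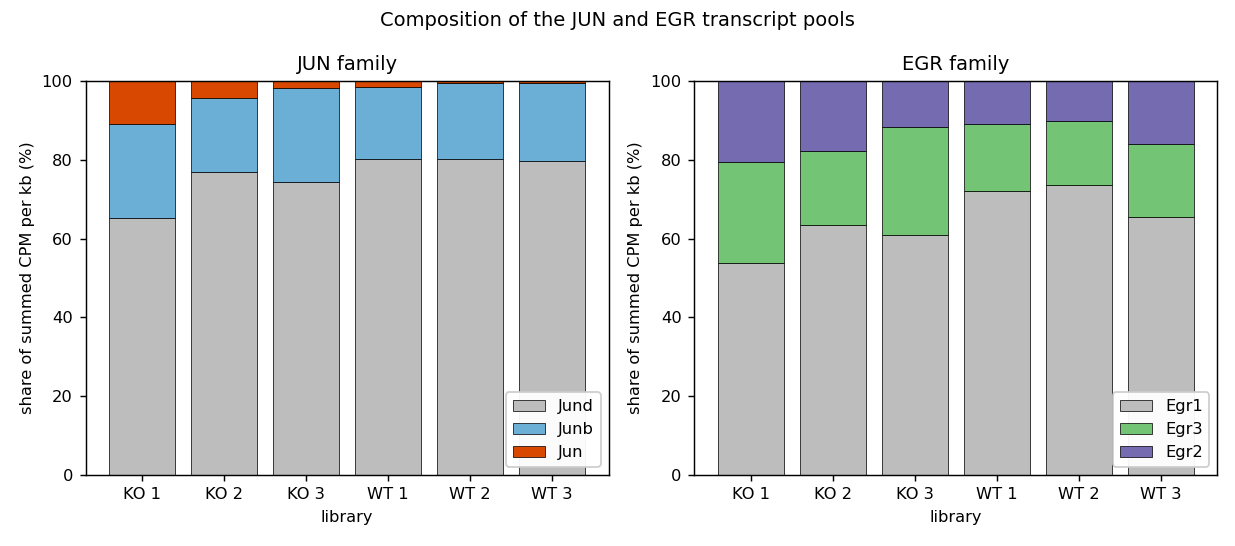
Stacked bars of the share that each gene holds of the summed CPM per kb of its family, by library, with JUN on the left and EGR on the right. Jun holds 1.79% to 10.9% in KO and 0.393% to 1.64% in WT, and Egr1 holds 53.7% to 63.3% in KO and 65.4% to 73.5% in WT.

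The bases before the starts of Fos, Jun, Egr2 and Junb are shown because Fos and Jun varied most between libraries, Egr2 was the member whose groups did not overlap, and Junb stayed near the median spread. Each line gives the 250 bases upstream of a RefSeq start (GRCm38.p6, which is mm10; for Egr2 1 of 5), 5′ to 3′ on the gene's strand, at chr12:85473640-85473889 for Fos (plus strand), chr4:95052223-95052472 for Jun (minus strand), chr10:67537619-67537868 for Egr2 (plus strand) and chr8:84978749-84978998 for Junb (minus strand). Capitals mark exact matches on either strand to the CArG box of serum response factor, the CRE core TGACG of CREB-family factors, the AP-1 site TGACTCA, the EGR sites GCGTGGGCG and GCGGGGGCG, and the TATA box TATAAA.
Fos: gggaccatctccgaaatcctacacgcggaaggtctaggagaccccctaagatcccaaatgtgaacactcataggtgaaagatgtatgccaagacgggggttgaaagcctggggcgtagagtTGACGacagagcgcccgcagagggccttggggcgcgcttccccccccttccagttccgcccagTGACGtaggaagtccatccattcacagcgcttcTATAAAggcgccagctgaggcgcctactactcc
Jun: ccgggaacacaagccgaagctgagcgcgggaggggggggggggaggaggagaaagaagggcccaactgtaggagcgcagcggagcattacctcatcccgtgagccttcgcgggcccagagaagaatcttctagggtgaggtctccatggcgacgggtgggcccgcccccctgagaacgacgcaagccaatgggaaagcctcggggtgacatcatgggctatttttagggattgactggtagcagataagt
Egr2: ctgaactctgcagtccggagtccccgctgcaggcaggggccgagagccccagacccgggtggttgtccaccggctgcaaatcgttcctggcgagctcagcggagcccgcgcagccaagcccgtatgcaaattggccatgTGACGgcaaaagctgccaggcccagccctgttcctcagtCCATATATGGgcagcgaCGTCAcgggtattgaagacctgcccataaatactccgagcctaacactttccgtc
Junb: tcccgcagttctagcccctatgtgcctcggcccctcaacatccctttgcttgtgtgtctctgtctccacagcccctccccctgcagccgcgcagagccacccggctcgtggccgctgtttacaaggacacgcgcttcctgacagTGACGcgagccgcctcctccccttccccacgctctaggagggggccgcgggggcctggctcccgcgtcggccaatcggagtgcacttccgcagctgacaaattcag

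Of the 7 members with a window that was used, 5 held the CRE core TGACG (Egr2, Fos, Fosb, Junb and Nr4a1). This core, added after the data were seen, is in 17.8% of all 32851 windows, and 19.8% of all genes hold it in any window. The full CRE, TGACGTCA, was in none of the 7 and in 1.55% of all windows, and the AP-1 site TGACTCA was in none and in 4.46%. Of the 7, Egr2 alone held a CArG box in its window, between 72 and 63 bases before the start shown, beside 1.47% of all windows. Egr2 has 5 windows, of which 4 held a CArG box and 1 held none of the motifs. Of all genes, 1.62% held such a box in at least one window. The letters were CCATATATGG in the window shown and in those overlapping it, and CCTTTTTTGG in the separate window at chr10:67537316-67537565. The EGR site GCGGGGGCG was in the windows of Fosb and Nr4a1, beside 2.57% of all windows, and GCGTGGGCG was in none, beside 0.536%. Fos held the TATA box 33 to 28 bases before its start, where 12.4% of windows hold one anywhere. Jun held none of these letters, which says nothing on sites further away or spelled otherwise. Jund held none either, but its window, chr8:70697489-70697738, does not reach the gene start at 70698949 in the annotation used for exon lengths. A match describes the sequence and not the binding of a factor.

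Among other genes of the same families, edgeR made no call after the filter and DESeq2 called Nab1. Of 15 further AP-1 and bZIP partner genes, 12 were tested, 0 passed by edgeR, and the median log2 fold change was 0.03. Atf3, a stress-induced repressor of the family, had 2.13, 12.4 and 10.5 CPM in KO and 3.41, 4.69 and 6.55 CPM in WT, and was thus lowest in KO 1, where Fos and Jun were highest. Fosl1 and Fosl2, the remaining FOS genes, stayed at no more than 1.22 CPM in any library. Among 8 further EGR, NR4A and IER genes and NAB corepressors, 3 were tested and 0 passed by edgeR. Nab1, which encodes a corepressor that binds EGR proteins, had 70.5, 61.3 and 74.2 CPM in KO, against 33.1, 38.1 and 29.9 CPM in WT. Its KO libraries all lay clear of its WT libraries. The log2 fold change of 1.02 (SE 0.21) missed the threshold (edgeR adjusted p = 0.117). It passed by DESeq2 (log2 fold change 0.99, adjusted p = 0.0089) and by edgeR with no filter on low counts (1.03, adjusted p = 0.0253), whereas its adjusted p in the other 12 alternatives was 0.0598 to 0.635. The related corepressor gene Nab2 had 30.5, 22.4 and 26.8 CPM in KO, against 33.1, 22.3 and 26.5 CPM in WT, a log2 fold change of -0.04 (SE 0.24). Nr4a2 and Nr4a3, the other NR4A receptors, reached no more than 0.911 CPM.

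Of 26 other immediate early response genes, 25 were tested and 0 passed. At an unadjusted p under 0.05 (edgeR) there were 3, all higher in KO, where 7.10% of all genes were. The median log2 fold change of the 25 was 0.20. Tnfaip3, which encodes the NF-kB inhibitor A20, differed by 0.73 log2 units (SE 0.22, adjusted p = 0.271 by edgeR). Trib1, a pseudokinase gene, differed by 1.12 (SE 0.37) and Dusp4, a MAP kinase phosphatase gene, by 0.82 (SE 0.36), both higher in KO. For Mcl1, a survival gene with the highest level of that list, the difference was 0.20 (SE 0.23). In the upstream list of SRF, TCF, CREB and MAP kinase genes 25 of 27 were tested, 0 passed, and the median was 0.02. Mapk3, which encodes the kinase ERK1, had 42.1, 61.3 and 63.0 CPM in KO and 82.2, 68.8 and 112 CPM in WT (-0.66 on the log2 scale, SE 0.25, adjusted p = 0.313 by edgeR). Crem, a gene of cAMP-responsive factors, differed by 0.74 log2 units (SE 0.31), higher in KO.

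Heat shock genes of the cell dissociation response were read beside the members, since both respond to handling. Of 12 listed, 11 were tested and 0 passed, with a median log2 fold change of 0.09. Hspa1a and Hspa1b, chosen after their values were seen, are near-identical copies whose reads can be shared. Together they stood at 41.7, 27.7 and 15.3 CPM in KO 1, KO 2 and KO 3 and at 37.0, 8.60 and 5.61 CPM in WT 1, WT 2 and WT 3. In each genotype their order over the libraries was that of Fos, with KO 1 and WT 1 highest. The other 9 tested heat shock genes had another order. Hspa8, with the smallest p of the list, had 1076, 1479 and 1019 CPM in KO, against 1827, 1582 and 1763 CPM in WT, a log2 fold change of -0.53 (edgeR adjusted p = 0.349). The part of handling in the Fos and Jun values was not tested.

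Markers of other cells also differed between libraries. Markers of macrophages and dendritic cells, 20 in all, added up to 1128, 1047 and 5970 CPM in KO 1, KO 2 and KO 3, against 1310, 2636 and 4932 CPM in WT 1, WT 2 and WT 3 (here and below for such sums, per total counts of the library). The sums were thus high in KO 3, WT 2 and WT 3, where Fos and Jun were low, and none of the 20 was called. Not every gene of the list followed its sum. Itgax and Itgam were highest in KO 1, at 28.1 and 18.8 CPM, where Fos and Jun were highest too. Follicular naive B cell markers, 7 measured with Klf2 shared with the list of other immediate early response genes, summed to 646, 511 and 557 CPM in KO and to 271, 459 and 331 CPM in WT. Their mean log2 deviation was 1.28 in KO 1, the library highest for Fos, Jun and Egr2, against 0.26 and -0.25 in KO 2 and KO 3 and -0.51 to -0.37 in WT. Germinal centre markers summed to 6557 CPM in KO 1, the lowest of all libraries, and to 8133 to 11457 in the others. Their median log2 fold change over 11 tested was -0.25. At an unadjusted p under 0.05 (edgeR) 3 of the 11 were lower in KO, where 5.50% of all genes were, and 0 passed. Light zone markers, 9 tested, had a median log2 fold change of -0.01, and dark zone markers, 10 tested, one of -0.19. The 7 follicular naive B cell markers had one of 1.21, with all 7 above 0. Of these 7, 2 were higher in KO at an unadjusted p under 0.05 (edgeR), where 7.10% of all genes were, and 0 passed. T cell markers summed to 318 to 352 CPM in KO and 332 to 423 in WT, with Cd3d and Cd3g at no more than 15 counts in any library. Plasma cell markers summed to 1457 to 1578 CPM in KO and 1453 to 1803 in WT. Of that list 9 were tested, with a median log2 fold change of 0.31 and 6 above 0. At an unadjusted p under 0.05 (edgeR) 2 were higher, where 7.10% of all genes were, and 0 passed. Mzb1, with the highest level of the list, differed by -0.47 (SE 0.23), and Sdc1 and Slamf7 by -0.09 and -0.05. Irf4 and Prdm1, chosen after their values were seen, had log2 fold changes of 1.10 and 2.30 (edgeR adjusted p = 0.213 and 0.305). Both were highest in KO 1, at 104 and 26.9 CPM. Neutrophil markers summed to at most 8.91 CPM in any library. The part of these cells in the members' values was not tested.

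**Figure D5:**
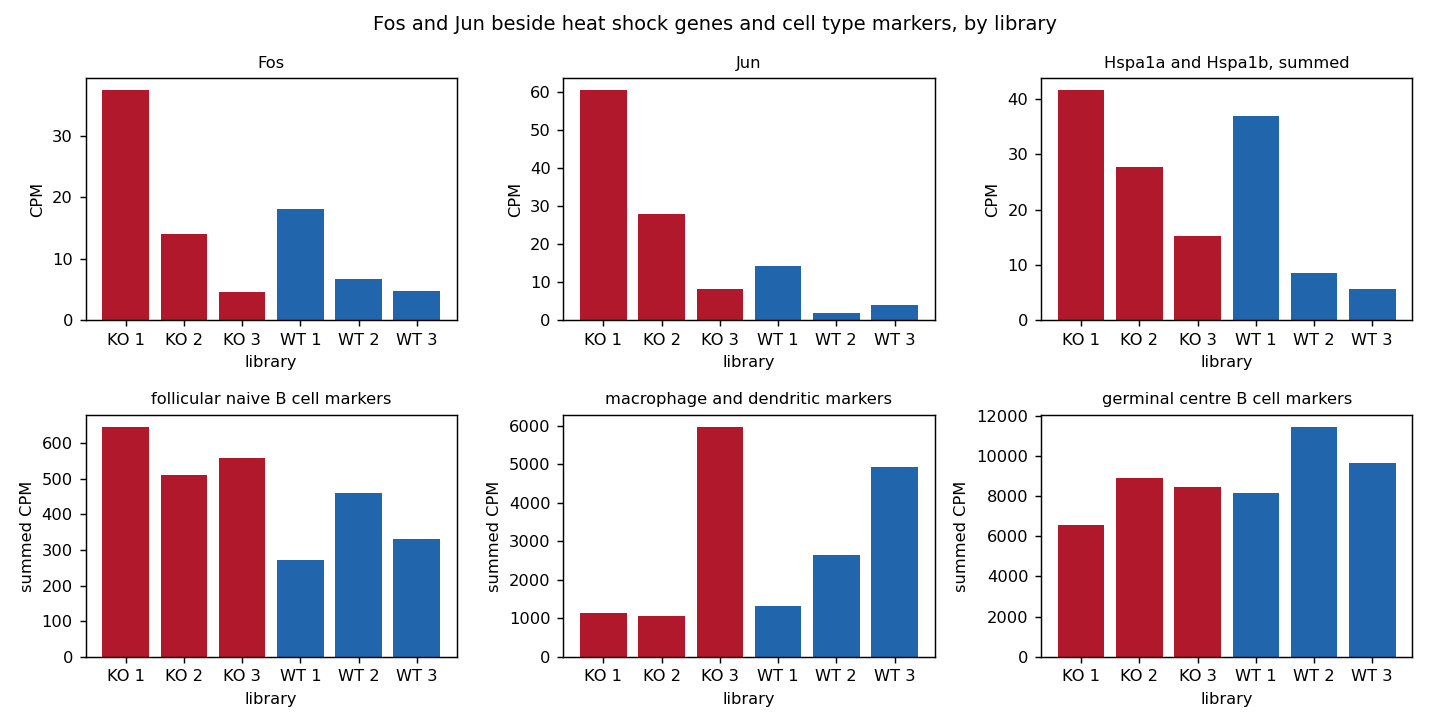
Bars of Fos and Jun CPM, the summed CPM of Hspa1a and Hspa1b, and the summed CPM of 3 marker lists, by library, with KO on the left and WT on the right. Fos and the heat shock pair are highest in KO 1 and WT 1 of their groups, and the macrophage markers are highest in KO 3 at 5970 CPM.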

How the data were processed

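The deposited table holds raw read counts by gene symbol, as the authors made them, in 6 columns for 6 mice. The submitters' processing notes name CASAVA, STAR 2.5.2, featureCounts 1.5.2 and mm10, whereas the annotation, the strand setting and the handling of multiply matching reads were not given in the sources used here. Groups came from the sample titles. Differences were tested by edgeR 4.0.16 under R 4.3.3, with filterByExpr, TMM, robust quasi-likelihood fits without covariates, two-sided tests and Benjamini-Hochberg adjustment over all 10926 tested genes at 0.05. The scripts were first tested on simulated data. Each SE follows from the log2 fold change and its F statistic, and log2 CPM used a prior count of 2. A count was worth 0.0706 to 0.0759 CPM in KO and 0.195 to 0.312 CPM in WT, and intervals from counts and floors cover counting error alone. Exon lengths and coordinates came from GENCODE vM21 on mm10, which may differ from the authors' annotation, and promoter windows from RefSeq. The CRE core and the TATA box were added after the data were seen. No pair of libraries of a group looked like a repeat, since their chi-square per degree of freedom was 14.4 or more. Alternatives were 2 other scalings, 2 other filters, DESeq2 1.42.0, limma-voom (limma 3.58.1), a replicate block, random thinning of each library to the smallest total count, and each library left out in turn. The members and lists were chosen with earlier results of these data known. Named by rule were the members, Kdm1a, genes of each pathway list with the smallest p-values or the highest level, and the 5 genes most like the members, and some of these are not reported here.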

Additional observations from a re-analysis of the deposited data

How the results depend on the processing

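None of the 9 tested members passed in any of the 14 alternatives, and with no filter, where Fosb was tested too, 0 of 10 passed. The median log2 fold change of the 9 ran from 0.09 (without KO 3) to 0.50 (without KO 2), and with Fosb among them it was 0.60. Jun, Jund, Egr1, Egr2, Egr3 and Nr4a1 kept their sign in all 14. Fos turned to -0.085 without KO 1, its values with 1 library left out running up to 1.69. Junb turned to 0.033 with library size alone, to 0.032 after thinning and to 0.080 without WT 1, and ran down to -0.29 without WT 2. Ier2 turned to -0.14 without WT 2 and ran up to 0.20 without WT 1. Library size alone moved the median of all genes to 0.13. Among all genes tested, 9 were called, against 18 with library size alone, 93 with no filter, 122 by DESeq2, 2 by limma-voom and 14 after thinning. With 1 library left out the count ran from 1 (WT 2 or WT 3 left out) to 24 (KO 1 left out), with 3 for KO 2 and 18 for KO 3. Of the 5 other pathway lists, Nab1 was the 1 gene called in any alternative, by DESeq2 and with no filter. The cause was not tested. With the replicate number as a block 21 genes were called, and Jun had a log2 fold change of 2.33 (edgeR adjusted p = 0.158). The sample titles give each library a number and name no pairing. Residual correlations of the same-numbered pairs were 0.34, -0.05 and 0.44 for numbers 1, 2 and 3. Those of numbers 1 and 3 were the highest of all pairs of libraries, whereas WT 2 had 0.14 with KO 3. By chi-square per degree of freedom WT 2 stood at 21.8 against KO 2, 45.4 against KO 1 and 40.2 against KO 3. These values do not settle whether same-numbered libraries were paired. Depth limits Fosb most, at 0 to 3 counts per WT library.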
